A study of Rattus norvegicus with 16 samples.

Results

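Microglia of rats that had received both X-irradiation and lipopolysaccharide (LPS, a bacterial cell wall component) were compared with microglia of rats that had received neither. The double hit was the 4 libraries labelled radiation and LPS, the baseline was the 4 libraries labelled sham and PBS, and these 8 were taken by their labels from a series of 16. The cells came from whole brains of male Wistar rats (Hsd/Cpb:WU), were dissociated mechanically in the cold and were sorted for the absence of DAPI staining, high CD11b and an intermediate level of CD45. Irradiated rats had received 14 Gy of X-rays and the others a sham irradiation, and an intraperitoneal injection of LPS or of the vehicle phosphate-buffered saline (PBS) followed 6 weeks later. The groups radiation PBS and sham LPS, of 4 libraries each, gave the single effects, so that the observed double hit could be set against their sum. The sources used here do not give rat age, irradiated field, LPS dose or the hours between injection and sorting. Animals are not named in the labels, and the p-values therefore reflect only how far these samples spread, which may be technical.

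Microglia are the resident macrophages of the brain. LPS is recognised by Toll-like receptor 4 with its co-receptors CD14 and MD-2, and the adaptors downstream switch on NF-kB and interferon regulatory factors, which drive cytokines, chemokines and interferon-responsive genes, followed by inhibitors that end the response. Irradiated brains are known for microglia in a lasting "primed" state, with lowered homeostatic genes and raised phagocytic, lysosomal and antigen-presenting genes, and primed microglia are known to respond differently to a later systemic stimulus.

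Total counts were 18581343 to 61435103 in the radiation LPS libraries, 13990623 to 24444248 with radiation PBS, 16257030 to 19415389 with sham LPS and 16523044 to 22063345 with sham PBS. The most deeply sequenced libraries were thus in the double-hit group, and thinning all libraries to the smallest total left 2942 genes higher and 2734 lower. Csf1r, the receptor for the growth factor that keeps microglia alive, had 6753 to 7890 per-million counts (CPM) with radiation LPS and 13600 to 14630 CPM with sham PBS. Csf1r alone does not tell microglia from other macrophages. The summed level of homeostatic microglia genes was 61390 to 80840 CPM with radiation LPS and 143200 to 154300 CPM with sham PBS. Library 1 of the radiation LPS group stood apart in transcripts of other cells, with a summed level of 191.5 CPM for red cell genes, 130.4 CPM for neuron genes and 2735 CPM for neutrophil genes. Radiation PBS library 1 was also the highest of its group for neuron genes. The share of counts on mitochondrial genes was 1.43% to 2.38% in radiation LPS, 1.60% to 2.37% in radiation PBS, 1.06% to 1.33% in sham LPS and 1.19% to 1.33% in sham PBS libraries, highest in both irradiated libraries numbered 1. Its part in the differences was not tested. Counts of other cells' markers that move without library 1 are given both ways below.

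The double hit changed the microglial transcriptome widely. Of 12308 genes tested, 3031 were higher (24.6%) and 2719 lower (22.1%) in radiation LPS than in sham PBS microglia, 5750 in all (46.7%), at a Benjamini-Hochberg adjusted p under 0.05 in the quasi-likelihood test of edgeR. Changes of at least 2-fold were more often increases, with 1553 genes higher and 1045 lower. For 5495 genes (44.6%) the 4 libraries of one group lay wholly above the 4 of the other. Sham LPS against sham PBS called 3845 genes (31.2%), of which 1945 were higher (15.8%) and 1900 lower (15.4%). Radiation PBS against sham PBS called 2754 genes (22.4%), of which 1453 were higher (11.8%) and 1301 lower (10.6%). These 3 comparisons share the sham PBS libraries. Genes are said below to have risen or fallen where they were called, levels are CPM scaled with trimmed-mean factors, fold changes are log2 ± SE with n = 4 libraries per group, and adjusted p values are from edgeR over all genes tested. Reads were not stated to be counted by strand.

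Granzymes, the interleukin-1 system and the enzyme of nitric oxide synthesis were among the genes that rose most. Gzmbl2, a granzyme B-like protease gene of cytotoxic cells, had 822, 324, 343 and 570 CPM in radiation LPS microglia and 0.560, 0.307, 0.424 and 1.56 CPM in sham PBS microglia. It rose 713-fold (9.48 ± 0.95, adjusted p = 2.89e-06), the largest increase among called genes whose log2 CPM averaged 3 or more, and its reads may be split among near-identical granzyme copies. Il1rn, the gene of the interleukin-1 receptor antagonist, had 232, 143, 144 and 159 CPM with radiation LPS and 1.12, 1.69, 1.32 and 0.454 CPM with sham PBS, an increase of 147-fold (SE 0.61 on the log2 scale). Neither pair of groups overlapped, which was a condition for naming these 2 genes among the largest increases. Gm6377 (7.37 ± 0.44), the syndecan gene Sdc4 (7.01 ± 0.45), the nucleoside transporter gene Slc28a2 (6.98 ± 0.43) and Plscr2 (6.00 ± 0.22) rose as well, and so did the NAD-consuming ectoenzyme gene Cd38 (6.53 ± 0.33).

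Il1b (ENSRNOG00000004649), which encodes the cytokine interleukin-1 beta, had 1221, 792, 795 and 1776 CPM with radiation LPS and 21.7, 23.0, 26.0 and 23.0 CPM with sham PBS. Every double-hit library thus lay far above every baseline library, and the increase was 49.0-fold (5.61 ± 0.32, adjusted p = 3.06e-09). The single effects on Il1b were 3.48 for LPS and 1.28 for irradiation, a sum of 4.76, and the double hit exceeded it by 0.85 ± 0.38, which did not pass the adjusted test (adjusted p = 0.371). Nos2, the inducible nitric oxide synthase gene, had 8894, 8174, 3343 and 7524 counts in the radiation LPS libraries, against 142 counts in the 4 radiation PBS libraries, 1172 in the 4 sham LPS libraries and 1 in the 4 sham PBS libraries. Summed over libraries, its level was 11.1 times that of sham LPS (95% counting interval 10.5 to 11.8) and 108 times that of radiation PBS (91.2 to 128). Against sham PBS the ratio was 14500, with an interval of 2610 to 574000 because it rests on a single count. The intervals cover counting error only.

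NF-kB target cytokines and related genes rose as a group: 29 of 33 tested members were higher and 1 was lower, with a median of 2.28, against a median of 0.02 over all genes. Tnfsf9, the gene of the ligand 4-1BBL, rose by 4.69 ± 0.23, with 79.5 to 112 CPM in radiation LPS and 2.04 to 4.62 CPM in sham PBS libraries. Tnf rose 7.32-fold in the double hit (2.87 ± 0.34), with 199, 267, 312 and 474 CPM against 53.2, 34.2, 42.7 and 41.1 CPM in sham PBS. LPS alone had taken Tnf to 336 to 660 CPM, and the departure from the sum of the single effects was -0.55 ± 0.45 (adjusted p = 0.709). Il6, a cytokine usually induced by LPS, was not called: it had 13.1, 12.7, 10.4 and 11.6 CPM with radiation LPS and 27.9, 13.6, 14.9 and 10.7 CPM with sham PBS (-0.49 ± 0.30, adjusted p = 0.194), and these groups overlapped.

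All chemokine calls were increases, 18 of 20 tested, with a median of 4.73. Cxcl10, an interferon-responsive T cell attractant, had 520, 468, 353 and 493 CPM with radiation LPS and 7.15, 12.5, 6.41 and 5.75 CPM with sham PBS, which is 57.7-fold (5.85 ± 0.32). Ccl2, the monocyte attractant, had 396, 160, 118 and 308 CPM with radiation LPS and 8.71, 10.7, 9.52 and 3.68 CPM with sham PBS, a 30.1-fold increase (4.91 ± 0.46). Cxcl16, a membrane-bound chemokine, rose 11.3-fold, with 1313 to 1738 CPM in radiation LPS and 108 to 159 CPM in sham PBS libraries. None of these 3 genes departed from its sum at the adjusted threshold, with departures of 0.96 ± 0.38 for Cxcl10, 1.21 ± 0.57 for Ccl2 and 0.37 ± 0.23 for Cxcl16.

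Of the genes that recognise LPS and pass the signal on, 15 of 25 rose and 3 fell, with a median of 0.44. The shares over all genes were 24.6% higher and 22.1% lower. Cd14, the LPS co-receptor, had 2403, 2119, 2067 and 3276 CPM with radiation LPS and 36.3, 59.8, 48.9 and 20.2 CPM with sham PBS (59.7-fold, 5.90 ± 0.58). Tlr4 itself had 84.6, 91.1, 95 and 81.8 CPM with radiation LPS and 149, 102, 104 and 113 CPM with sham PBS. It fell by 0.40 on the log2 scale (adjusted p = 0.0226), a call that was lost without radiation LPS library 1 (adjusted p = 0.0528), radiation LPS library 4 (adjusted p = 0.0628) or sham PBS library 1 (adjusted p = 0.114). Tlr1, which pairs with TLR2 on bacterial lipopeptides, rose 7.05-fold, and Ticam2, the adaptor that links TLR4 to interferon induction, was 2.88-fold lower. Both lay within 1.5-fold of the sum of their single effects, in the sense that the 95% interval of the departure stayed inside that range.

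Inhibitors of the response rose with it. Of 27 negative regulators of innate signalling 23 were higher and 2 lower, with a median of 2.39. Socs3, a feedback inhibitor of cytokine receptors, had 996, 755, 808 and 1073 CPM with radiation LPS and 16.3, 19.6, 24.3 and 26.2 CPM with sham PBS (42.0-fold, 5.39 ± 0.23). Nfkbia, the gene of the NF-kB inhibitor IkB-alpha, had 827 to 994 CPM with radiation LPS and 127 to 259 CPM with sham PBS (5.08-fold). Bcl3, an atypical IkB protein, had 103, 94.5, 86.3 and 101 CPM with radiation LPS and 0.684, 1.18, 0.848 and 1.92 CPM with sham PBS, a rise of 6.36 ± 0.28. Ptpn1, a phosphatase gene of cytokine signalling, rose 6.29-fold with the smallest p of its list, and its departure of 0.03 ± 0.11 had an interval of -0.19 to 0.26.

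Interferon-responsive genes rose almost throughout. In the type I interferon list 41 of 46 tested members were higher and 1 lower, with a median of 2.05, and in the interferon-gamma list 20 of 21 were higher and 0 lower, with a median of 2.61. Ifit3, an antiviral effector gene, had 1033, 973, 439 and 503 CPM with radiation LPS and 12.9, 14.5, 4.71 and 6.00 CPM with sham PBS (77.8-fold, 6.28 ± 0.68). Parp9, which partners the ubiquitin ligase DTX3L in interferon signalling, had 320, 343, 315 and 307 CPM with radiation LPS and 87.6, 81.9, 94.7 and 82.6 CPM with sham PBS (3.70-fold). Tap1, the peptide transporter of class I antigen presentation, rose 6.15-fold, with 333 to 509 CPM in radiation LPS and 62.2 to 67.8 CPM in sham PBS libraries. The median departure was 0.36 in the type I list, where 2 members were called above their sum, a number that ran from 0 to 5 when each library was left out in turn and was 0 without radiation LPS library 1, 2 or 4. It was 0.25 in the interferon-gamma list (0.28 with members near 0 set at their floor of 3 counts over a group), with 3 members called above (5 without radiation LPS library 3 or sham LPS library 3, 2 without both irradiated libraries numbered 1), against a median of 0.01 over all genes. The share of all genes called above their sum was 0.674%.

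**Figure D1:**
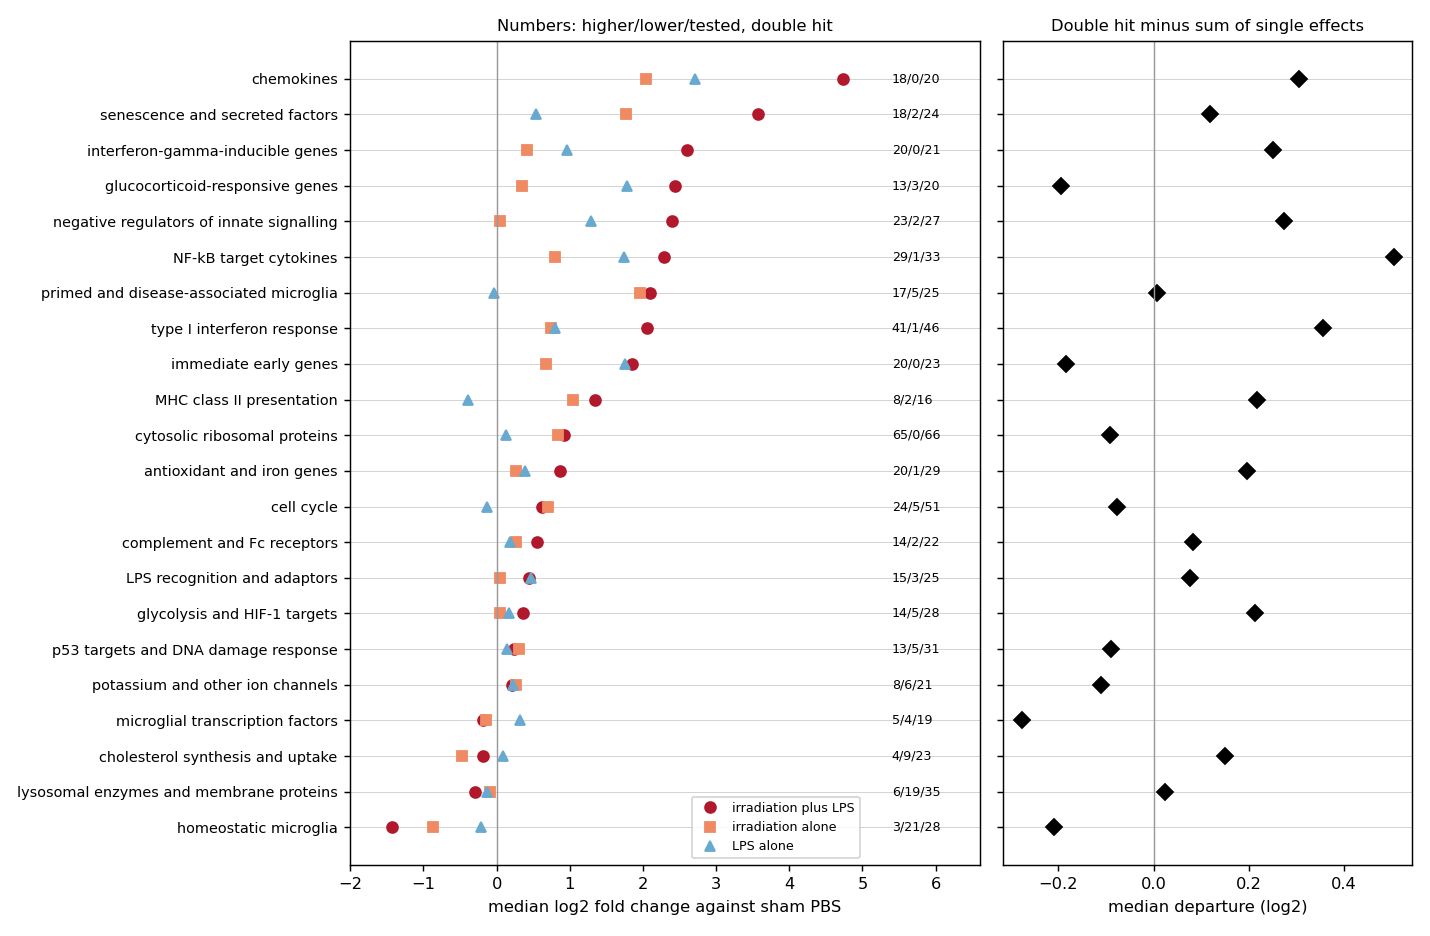
Left, the median log2 fold change against sham PBS of the pathway gene lists for the double hit, irradiation alone and LPS alone, with the numbers of members higher, lower and tested in the double hit; right, the median departure of the double hit from the sum (log2). Chemokines have the highest double-hit median, 4.73, and homeostatic microglia genes the lowest, -1.44.

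In the list of primed and disease-associated microglia, 17 of 25 genes were higher and 5 lower, with a median of 2.09. Clec7a (ENSRNOG00000054251), the beta-glucan receptor dectin-1, had 772, 897, 883 and 684 CPM with radiation LPS, 612, 614, 410 and 362 CPM with radiation PBS, 15.7, 42.9, 25.3 and 30.9 CPM with sham LPS and 29.9, 26.6, 28.6 and 23.5 CPM with sham PBS. Its double-hit increase was 29.8-fold (4.90 ± 0.28), its irradiation effect 4.20 and its LPS effect 0.08, and the difference of 0.61 ± 0.34 between the double hit and the sum did not pass the test (adjusted p = 0.514). Lgals3, the galectin-3 gene, had 161 to 194 CPM with radiation LPS and 4.55 to 6.22 CPM with sham PBS (35.0-fold). Itgax, the integrin CD11c gene, had 264 to 362 CPM with radiation LPS and 5.90 to 10.3 CPM with sham PBS (37.4-fold). Kcnn4, a calcium-activated potassium channel gene, rose 37.0-fold. Of 21 ion channel genes 8 were higher and 6 lower, with a median of 0.21, beside 24.6% higher and 22.1% lower over all genes. No member of the primed list was called as departing from its sum, and 8 of 25 had a departure interval within 1.5-fold. Both were near the shares of all genes, of which 1.38% were called and 29.3% lay within 1.5-fold.

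Antigen presentation and phagocytic receptors followed in part. Of 16 MHC class II genes 8 rose and 2 fell, and RT1-Da had 2248, 1745, 2140 and 2163 CPM with radiation LPS and 525, 561, 538 and 496 CPM with sham PBS (3.91-fold). RT1 genes have close copies among which reads may be split. Of 22 complement and Fc receptor genes 14 rose and 2 fell. Beside both lists, 24.6% of all genes were higher and 22.1% lower. Cd68, a lysosomal glycoprotein of phagocytes, had 491, 607, 506 and 505 CPM with radiation LPS and 115, 127, 127 and 127 CPM with sham PBS (4.26-fold). Lysosomal enzymes and membrane proteins as a list went the other way, with 19 of 35 lower, 6 higher and a median of -0.29, and 26 of the 35 stayed within 1.5-fold of the sum.

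Homeostatic genes fell: 21 of 28 tested members were lower and 3 higher, with a median of -1.44. P2ry12 (ENSRNOG00000013902), the purinergic receptor of surveying microglia, had 148, 133, 99.2 and 125 CPM with radiation LPS, 245, 297, 240 and 241 CPM with radiation PBS, 429, 320, 298 and 255 CPM with sham LPS and 586, 415, 777 and 488 CPM with sham PBS. Its level fell with each single hit and was lowest in all 4 double-hit libraries, 4.49-fold lower than in sham PBS (-2.17 ± 0.19). The sum of the single effects was -1.95, and the departure of -0.22 ± 0.26 had an interval of -0.76 to 0.33. Tmem119, a microglial surface protein gene, had 1198, 1434, 1416 and 1171 CPM with radiation LPS and 4921, 4632, 6621 and 4362 CPM with sham PBS (3.94-fold lower). Cx3cr1, the fractalkine receptor gene, had 3880 to 5899 CPM with radiation LPS and 13820 to 14930 CPM with sham PBS (2.99-fold lower). Sall1, a transcription factor of microglial identity, was 3.43-fold lower, and Gpr34, a lysophosphatidylserine receptor gene, was 7.04-fold lower. In the homeostatic list 24 of 28 members had a departure interval within 2-fold and 0 were called. Of all genes 55.6% lay within 2-fold and only 1.38% were called.

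The largest decreases were in genes of varied function. Fam83d (ENSRNOG00000015794), a mitotic spindle protein gene, had 7.31, 14.0, 5.75 and 5.71 CPM with radiation LPS and 176, 211, 262 and 218 CPM with sham PBS, 26.1-fold lower (-4.71 ± 0.27). Its sum of single effects was -3.39, and the departure of -1.32 ± 0.33 missed the threshold (adjusted p = 0.0686) but passed it without radiation LPS library 2 (-1.75, adjusted p = 0.000691). Eva1a, an autophagy regulator gene, had 6.95 to 10.6 CPM with radiation LPS and 122 to 135 CPM with sham PBS (14.9-fold lower). Cdh23, a cadherin gene, was 13.6-fold lower, the potassium channel gene Kcna2 13.2-fold lower, the matrix metalloproteinase gene Mmp28 12.2-fold lower and the lysophosphatidic acid receptor gene Lpar5 10.3-fold lower. None of these groups overlapped, which was a condition for naming the genes here.

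Ribosomal protein genes were higher almost throughout. Of 66 cytosolic ribosomal protein genes 65 were higher and 0 lower, with a median of 0.91, and 60 of them had a departure interval within 1.5-fold. Rplp0 had 1345, 1385, 1386 and 1413 CPM with radiation LPS, 1261 to 1416 CPM with radiation PBS, 543 to 673 CPM with sham LPS and 576, 563, 607 and 625 CPM with sham PBS. The level of Rplp0 was thus that of radiation PBS, with an LPS effect of 0.05. Ribosomal genes have pseudogene copies that may take reads. Of 31 p53 and DNA damage genes 13 rose and 5 fell, with a median of 0.24, beside 24.6% higher and 22.1% lower over all genes. Of 24 genes of senescence and secreted factors 18 rose and 2 fell, with a median of 3.57. That list holds secreted factors such as Il1b beside Cdkn1a, so its rise is not specific to senescence.

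Immediate early genes were higher in 20 of 23 cases and lower in 0, with a median of 1.85, and glucocorticoid-responsive genes in 13 of 20 with 3 lower. Fkbp5, a chaperone gene induced by glucocorticoids, had 75.1, 64.0, 91.2 and 63.2 CPM with radiation LPS and 4.17, 2.25, 4.48 and 4.13 CPM with sham PBS (19.5-fold). Of 29 antioxidant and iron genes 20 rose and 1 fell, including Nfe2l2, the gene of the antioxidant regulator NRF2 (3.55-fold). Of 28 glycolysis and HIF-1 target genes 14 rose and 5 fell, and P4ha1, a collagen prolyl hydroxylase subunit gene, was 3.72-fold lower, with 191 to 231 CPM in radiation LPS and 761 to 830 CPM in sham PBS libraries. Cholesterol synthesis genes were lower in 9 of 23 cases and higher in 4, with a median of -0.19, and cell cycle genes were higher in 24 of 51 cases and lower in 5, with a median of 0.62, beside 24.6% higher and 22.1% lower over all genes. The mitotic kinase gene Ttk was 1 of the 5 (5.66-fold lower).

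**Figure D2:**
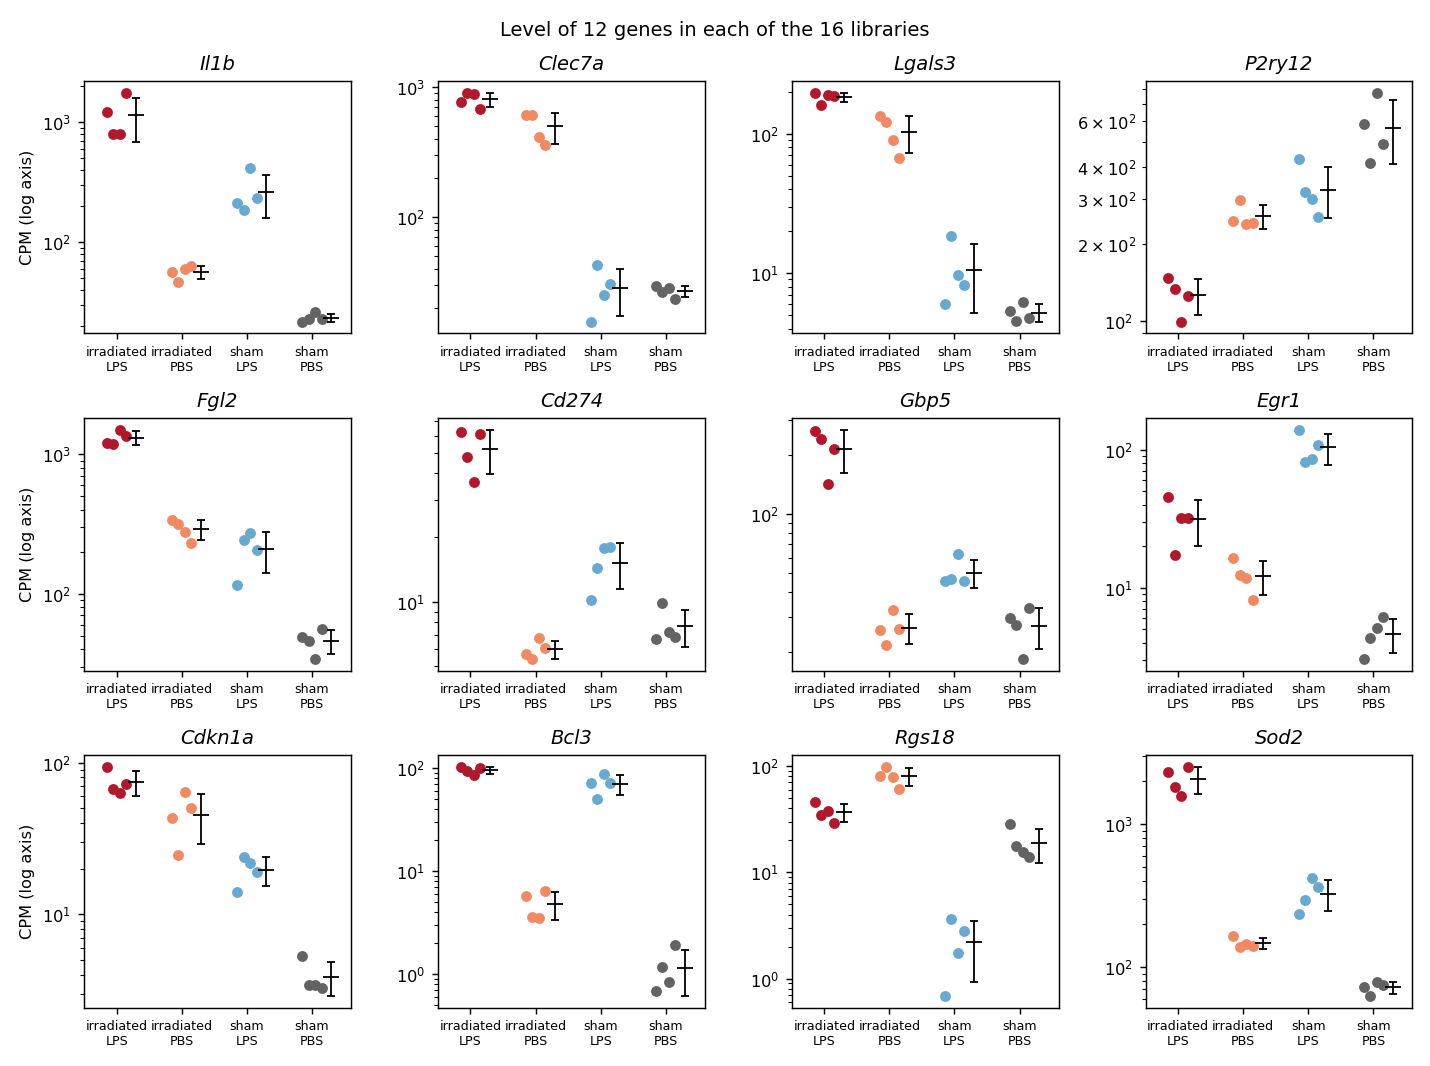
CPM on a log axis of 12 genes in each of the 16 libraries, in the order radiation LPS, radiation PBS, sham LPS and sham PBS, with the mean ± SD of 4 libraries beside the points. Clec7a is high in both irradiated groups, Egr1 is highest with sham LPS (81.0 to 139 CPM), and Cd274 and Gbp5 are high in the radiation LPS libraries.

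How far the double hit equalled the sum of the single effects was tested for every gene as a departure, the log2 fold change of the double hit minus those of LPS and of irradiation. A departure of 0 means that the fold changes multiply. It was called for 170 of 12308 genes (1.38%), 83 above the sum (0.674%) and 87 below it (0.707%). Among the calls, 41 were at least 2-fold above and 52 at least 2-fold below. The counts depend on single libraries: the number above fell to 55 without radiation LPS library 4, 55 without radiation PBS library 4 and 54 without sham PBS library 1, and the number below to 53 without radiation PBS library 3, 55 without sham LPS library 4 and 51 without sham PBS library 3. When each library was left out in turn, 89 of the 170 genes were called every time.

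The absence of a call was not equality. For 3609 genes (29.3%) the 95% interval of the departure lay within 1.5-fold of the sum in either direction, and for 6839 (55.6%) within 2-fold. The other 5329 genes (43.3%) were neither called nor held within 2-fold, so that these libraries could not show whether they followed the sum. The median SE of a departure was 0.27, against 0.19 for the double hit itself, since 4 group means enter it. The median departure over all genes was 0.01.

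**Figure D3:**
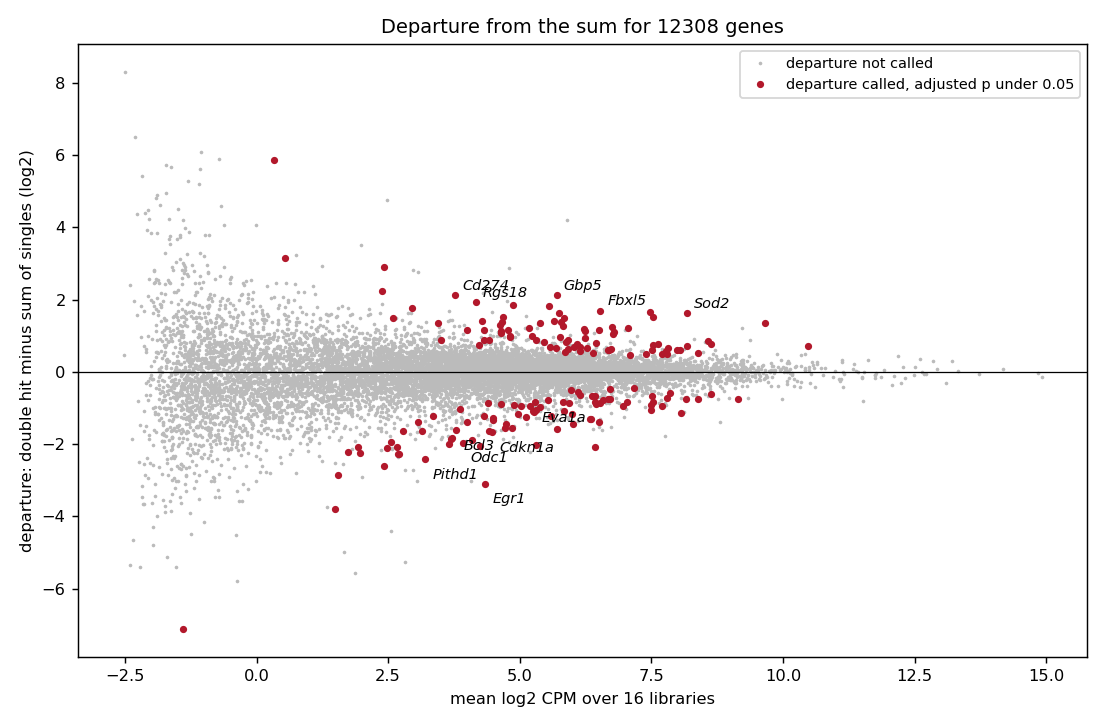
Departure of the double hit from the sum of the single effects (log2) against the mean log2 CPM of each of 12308 genes, with the 83 genes called above the sum and the 87 called below it marked. Most genes scatter around 0, with a wider scatter at low levels.

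Fgl2 (ENSRNOG00000012881), which encodes a secreted fibrinogen-like immunoregulatory protein, was the gene with the largest double-hit change among those held within 1.5-fold of the sum. It had 1215, 1188, 1506 and 1364 CPM with radiation LPS, 336, 315, 278 and 231 CPM with radiation PBS, 116, 243, 272 and 208 CPM with sham LPS and 49.3, 45.5, 34.0 and 55.5 CPM with sham PBS. Each single hit raised it, and the double-hit libraries lay above all others. The double hit was 4.84 ± 0.25 and the sum of the single effects 4.84, with a departure interval of -0.56 to 0.56. On the CPM scale the mean of 1318 ± 147 CPM (SD, n = 4) was near the 1319 CPM that multiplied fold changes give and far above the 453.5 CPM that added CPM differences give. Since Fgl2 was chosen for a departure within 1.5-fold, these CPM values restate that choice and are no further test.

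The guanine exchange factor gene Arhgef3 (double hit 4.57, sum 4.57), the RNA-binding protein gene Arid5a (3.39 and 3.51), the intermediate filament gene Vim (2.98 and 2.99), the adaptor gene Samsn1 (2.91 and 2.75) and the tubulin gene Tuba1c (2.88 and 2.95) were also held within 1.5-fold of their sums. Vim owed most of its change to irradiation (2.41) and Arid5a most to LPS (2.91). Csf1r, with a double hit of -0.94 and a sum of -0.95, had the narrow departure interval of -0.19 to 0.23.

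Among the 462 genes that rose with each single hit, 442 were called higher in the double hit, 19 were not called and 1 was lower. The median double hit of these 462 genes was 2.37 and the median sum 2.67, and 5 were called above and 34 below the sum. On the CPM scale 327 of the 462 lay above the added differences. Among the 418 genes that fell with each hit, 413 were called lower in the double hit, with a median of -1.18 against a sum of -1.21, and 3 and 6 were called above and below it. These classes were chosen by the calls of both single comparisons, which share the sham PBS libraries with the double hit, so their medians are a description.

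**Figure D4:**
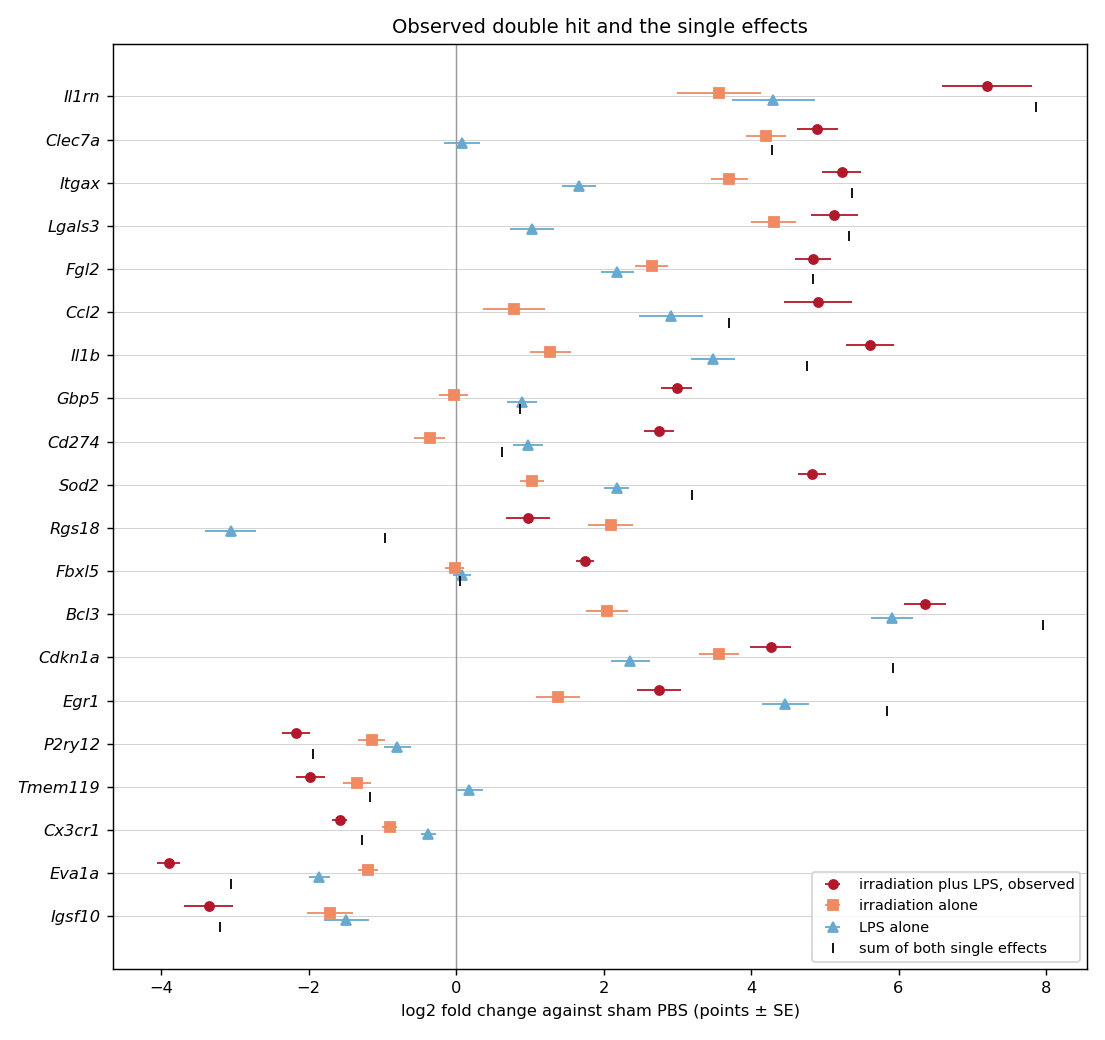
Log2 fold change against sham PBS of 20 genes for the double hit, irradiation alone and LPS alone (points ± SE, n = 4 libraries per group), with a tick at the sum of the single effects. The tick falls on the double hit for Fgl2 (4.84), lies left of it for Cd274 (0.62 against 2.75) and right of it for Egr1 (5.84 against 2.75).

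Several genes rose beyond the sum. Cd274 (ENSRNOG00000016112), which encodes the immune checkpoint ligand PD-L1, had 62.4, 47.5, 36.4 and 60.7 CPM with radiation LPS, 5.71, 5.39, 6.73 and 6.10 CPM with radiation PBS, 10.2, 14.4, 17.9 and 18.1 CPM with sham LPS and 6.72, 9.92, 7.26 and 6.81 CPM with sham PBS. The double-hit libraries lay above all the others, while radiation PBS overlapped neither them nor sham LPS. The double hit of 2.75 ± 0.21 exceeded the sum of 0.62 by 2.13 ± 0.29 (interval 1.53 to 2.74, adjusted p = 0.000835), a factor of 4.38.

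Gbp5 (ENSRNOG00000032240), the gene of an interferon-inducible GTPase that acts in inflammasome assembly, had 263, 241, 141 and 214 CPM with radiation LPS, 25.8, 21.5, 32.5 and 26.1 CPM with radiation PBS, 45.9, 46.8, 62.5 and 45.7 CPM with sham LPS and 29.6, 27.2, 18.3 and 33.2 CPM with sham PBS. Irradiation alone left it within the baseline range (-0.03), LPS alone gave 0.89, and the double hit 2.99, so that the departure was 2.13 ± 0.28 (adjusted p = 0.000835). Tnip1, an inhibitor of NF-kB that binds the A20 protein, had 164, 121, 113 and 196 CPM with radiation LPS, 51.8, 46.7, 34.8 and 37.3 CPM with radiation PBS, 34.2, 30.3, 23.0 and 24.9 CPM with sham LPS and 27.1, 29.1, 29.9 and 27.1 CPM with sham PBS. LPS alone did not raise it (-0.01), and its departure was 1.81 ± 0.24. Tnfaip3, the gene of A20 itself, had a departure of 1.24 ± 0.24 (adjusted p = 0.0141), with 177 to 311 CPM in radiation LPS and 61.9 to 90.1 CPM in sham PBS libraries.

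The promoters of Gbp5 and Tnip1, with a departure above the sum, and of Egr1, with a departure below it, are shown from RefSeq (build GRCr8) as the 250 bases before the gene's start, 5′ to 3′ on the gene's strand. Capitals mark matches, on either strand, to the NF-kB pattern (GGG, any 5 bases, CC), the interferon-stimulated response element (GAAA, any 2 bases, GAAA), the gamma-activated sequence (TTC, any 3 bases, GAA) and the serum response CArG box. The Gbp5 promoter, chr2:233910749-233910998 on the + strand, held 2 NF-kB matches and 1 interferon-stimulated response element. That of Tnip1, chr10:39584962-39585211 on the - strand, held 3 overlapping NF-kB matches and 1 gamma-activated sequence. That of Egr1, chr18:26736828-26737077 on the + strand, held 2 NF-kB matches and 2 CArG boxes.
Gbp5: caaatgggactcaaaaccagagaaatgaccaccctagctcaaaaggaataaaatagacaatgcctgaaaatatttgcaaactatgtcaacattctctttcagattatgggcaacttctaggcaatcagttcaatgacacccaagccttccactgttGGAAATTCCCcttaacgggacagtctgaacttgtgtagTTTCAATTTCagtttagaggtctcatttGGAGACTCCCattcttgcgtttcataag
Tnip1: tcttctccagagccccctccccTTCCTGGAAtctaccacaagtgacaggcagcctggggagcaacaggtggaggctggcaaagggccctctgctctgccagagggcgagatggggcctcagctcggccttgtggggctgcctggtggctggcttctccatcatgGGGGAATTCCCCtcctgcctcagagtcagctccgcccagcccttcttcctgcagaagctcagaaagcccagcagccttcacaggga
Egr1: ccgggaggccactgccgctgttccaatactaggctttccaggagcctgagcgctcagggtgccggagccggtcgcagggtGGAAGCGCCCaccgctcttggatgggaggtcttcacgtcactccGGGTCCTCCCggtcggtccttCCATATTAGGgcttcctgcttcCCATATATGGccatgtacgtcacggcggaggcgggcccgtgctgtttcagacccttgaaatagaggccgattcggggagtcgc
The NF-kB pattern is common: it occurred in 42.3% of all 33469 promoters of the table and in 59.5% of the 10764 promoters of tested genes. It was in 54 of 73 promoters of genes above the sum (74.0%) and in 47 of 78 of those below (60.3%). The response element occurred in 3.41%, the gamma-activated sequence in 7.67%, the AP-1 pattern TGANTCA in 6.34% and the CArG box in 1.5% of all promoters, and the CArG box in 0 of the 73 and 3 of the 78. The Cd274 window held none of these patterns. A match describes letters and does not show binding.

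A few genes changed in the double hit with little change in either single comparison. Fbxl5 (ENSRNOG00000005261), the iron-sensing subunit of a ubiquitin ligase that controls iron regulatory proteins, had 251, 178, 210 and 271 CPM with radiation LPS, 69.3, 68.8, 59.4 and 69.6 CPM with radiation PBS, 58.4, 73.6, 82.2 and 71.5 CPM with sham LPS and 74.5, 61.6, 67.8 and 67.2 CPM with sham PBS. The 3 other groups overlapped one another and the double-hit libraries stood above them, with a double hit of 1.75 ± 0.13, single effects of -0.02 for irradiation and 0.08 for LPS and a departure of 1.69 ± 0.17 (adjusted p = 9.31e-05). In all, 29 genes were called in the double hit and in the departure but in neither single comparison. Il1rap, the accessory chain of the interleukin-1 receptor, had 129, 74.2, 71.7 and 84.1 CPM with radiation LPS and 13.5 to 31.3 CPM in all other libraries, with a departure of 1.85 ± 0.29. Slc11a2, the iron transporter DMT1 gene, had a departure of 1.27, the chemerin receptor-like gene Ccrl2 one of 1.42, and Adprm, a phosphodiesterase gene, one of 0.99.

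Iron and redox genes were called above the sum in 4 of 29 cases and below it in 0, where 0.674% and 0.707% of all genes were. Sod2, the mitochondrial superoxide dismutase gene, had 2321, 1821, 1573 and 2516 CPM with radiation LPS, 166, 138, 146 and 140 CPM with radiation PBS, 236, 294, 418 and 362 CPM with sham LPS and 72.4, 62.8, 79.6 and 74.7 CPM with sham PBS. Its double hit of 4.83 ± 0.19 exceeded the sum of 3.20 by 1.63 ± 0.23 (adjusted p = 0.00117). Steap4, a metalloreductase gene, had 270 to 353 CPM with radiation LPS, 80.3 to 112 CPM with radiation PBS and 167 to 206 CPM with sham PBS. It was thus lower after irradiation alone (-0.98) and higher in the double hit (0.81), with a departure of 1.52 ± 0.17 (adjusted p = 0.000154). Prdx5, a peroxiredoxin gene, and Slc11a2 were the other members called, and Prdx5 departed by 1.22.

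In the complement and Fc receptor list 3 of 22 genes, all low-affinity Fc receptors, were called above the sum and 0 below it. The shares of all genes were 0.674% and 0.707%. Fcgr2b, the inhibitory receptor gene, had 1220 to 1770 CPM with radiation LPS, 518 to 695 CPM with radiation PBS and 616 to 930 CPM with sham PBS, with a departure of 1.34 ± 0.19 (adjusted p = 0.000944). Fcgr3a departed by 0.86 ± 0.15 and Fcgr2a by 0.71 ± 0.12. Hif1a, the oxygen-regulated transcription factor gene, had 312 to 404 CPM with radiation LPS and 131 to 155 CPM with sham PBS, with a departure of 0.77 ± 0.12 (adjusted p = 0.00324), and the glucose transporter gene Slc2a1 departed by 1.15 ± 0.21. The phosphodiesterase gene Pde4b, which degrades cyclic AMP, departed by 1.63 ± 0.23. Serpinb1a, an inhibitor of neutrophil proteases, had 684 CPM in radiation LPS library 1 and 316 to 352 CPM in the others, against 123 to 143 CPM with sham PBS. Its departure of 1.66 ± 0.25 was 1.32 (adjusted p = 0.00011) without both irradiated libraries numbered 1.

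Egr1 (ENSRNOG00000019422), an immediate early transcription factor gene, stood furthest below the sum among called genes whose log2 CPM averaged 3 or more. It had 45.5, 17.4, 31.7 and 32.0 CPM with radiation LPS, 16.6, 12.3, 11.8 and 8.21 CPM with radiation PBS, 139, 81.0, 85.4 and 109 CPM with sham LPS and 3.05, 4.35, 5.14 and 6.10 CPM with sham PBS. LPS after irradiation therefore gave a level below that of LPS alone in every library, though above baseline. The double hit was 2.75 ± 0.30, the sum 5.84 and the departure -3.09 ± 0.41 (interval -3.95 to -2.23, adjusted p = 0.000944). Btg2, an antiproliferative gene that p53 and growth signals induce, had 148, 142, 126 and 179 CPM with radiation LPS, 41.3 to 50.5 CPM with radiation PBS, 254 to 306 CPM with sham LPS and 30.7 to 40.0 CPM with sham PBS, and departed by -1.39 ± 0.16 (adjusted p = 0.000154). These were the 2 of 23 immediate early genes called below the sum, where 0.707% of all genes were.

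Cdkn1a (ENSRNOG00000000521), the gene of the cell cycle inhibitor p21, had 94.1, 67.5, 63.3 and 72.1 CPM with radiation LPS, 43.1, 24.7, 64.0 and 50.1 CPM with radiation PBS, 14.1, 24, 22 and 19 CPM with sham LPS and 5.35, 3.42, 3.44 and 3.28 CPM with sham PBS. It rose 19.3-fold in the double hit (4.27 ± 0.28), and the lowest radiation LPS library lay just under the highest radiation PBS library. The departure of -1.66 ± 0.35 (adjusted p = 0.0244) was lost when radiation LPS library 4, sham LPS library 2 or sham PBS library 2, 3 or 4 was left out, with adjusted p from 0.0527 to 0.0658. On the CPM scale the same double hit lay 12.9 CPM above the added single differences. Bcl3 had a departure of -1.60 ± 0.35 (adjusted p = 0.0271) that was lost in 8 of 16 leave-outs (adjusted p from 0.0504 to 0.0824) and a linear difference of 21.8 CPM above the added effects. Sdc1, a syndecan gene, had 50 to 68.5 CPM with radiation LPS, 18.7 to 31.2 CPM with radiation PBS, 21.6 to 49.3 CPM with sham LPS and 2.67 to 3.63 CPM with sham PBS, and departed by -2.05 ± 0.34 (adjusted p = 0.00446), with a linear difference of 7.28 CPM above.

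Odc1, the enzyme that starts polyamine synthesis, had 27.6, 18.8, 27.1 and 25.6 CPM with radiation LPS, 33.1 to 47.7 CPM with radiation PBS, 7.57 to 15.1 CPM with sham LPS and 2.55 to 6.45 CPM with sham PBS. The double-hit level thus lay between the single ones, and the departure was -1.96 ± 0.34 (adjusted p = 0.00614). Rnf187 (-2.02 ± 0.27), Snx20 (-1.90 ± 0.31) and Mtarc1 (-2 ± 0.40) were higher in 1 or both single groups and near or below baseline in the double hit, and Snx20 had 9.41 to 17.4 CPM with radiation LPS and 8.52 to 13.4 CPM with sham PBS. Rcn2 (-2.07 ± 0.43) and Pithd1 (-2.42 ± 0.55) were called too, but Rcn2 lost the call in 8 and Pithd1 in 10 of 16 leave-outs. Pim1, an LPS-induced kinase gene, departed by -2.24 ± 0.40 (adjusted p = 0.00645) and still rose in the double hit.

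For some genes the single effects pointed in opposite directions. Tlr8, an endosomal receptor gene for RNA, had 74.0, 74.8, 53.7 and 58.2 CPM with radiation LPS, 112 to 169 CPM with radiation PBS, 1.12 to 8.03 CPM with sham LPS and 13.5 to 20.8 CPM with sham PBS. Its double hit of 1.93 ± 0.41 stood beside a sum of 0.97. Rgs18, a regulator of G-protein signalling, had 46.2, 34.4, 37.5 and 28.9 CPM with radiation LPS, 61.3 to 98.2 CPM with radiation PBS, 0.683 to 3.65 CPM with sham LPS and 13.8 to 28.2 CPM with sham PBS. It was higher in the double hit (0.97 ± 0.30) where the sum was -0.97, a departure of 1.94 ± 0.45 (adjusted p = 0.0439) that was lost in 12 of 16 leave-outs (adjusted p from 0.0558 to 0.0872). Ccr2, the monocyte chemokine receptor gene, had 57.1, 17.5, 19.7 and 29.3 CPM with radiation LPS and 8.79 to 16.3 CPM with sham PBS. Its increase of 1.17 ± 0.39 (adjusted p = 0.0212) was lost without radiation LPS library 1 (0.70, adjusted p = 0.097) or sham PBS library 2 (1.00, adjusted p = 0.0672). Nrp1, a semaphorin co-receptor gene, was not called (0.47 ± 0.23), with single effects of 1.84 for irradiation and -1.61 for LPS. Of 180 genes higher with LPS and lower with irradiation, 57 were higher, 25 lower and 98 not called in the double hit, and of 168 with the reverse pattern 73 were higher, 13 lower and 82 not called.

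Markers of other cells moved with the double hit. In bulk RNA, more cells of a type and more RNA per cell cannot be told apart. Of 22 monocyte markers 20 rose and 0 fell, with a summed level of 18930 to 22970 CPM in radiation LPS and 2901 to 4312 CPM in sham PBS libraries. Most of that sum was lysozyme, Lyz2, which microglia also express, while Ly6c had 36.9 to 89.8 CPM in radiation LPS and 0.377 to 5.54 CPM in sham PBS libraries. Of 14 markers of border-associated macrophages 13 rose and 1 fell, with sums of 4283 to 5964 CPM in radiation LPS and 499.3 to 596.1 CPM in sham PBS libraries, and the mannose receptor gene Mrc1 had 547 to 895 CPM in radiation LPS and 77.0 to 94.3 CPM in sham PBS libraries. Of 27 T and NK cell markers 23 rose and 1 fell, with sums of 1523 to 2706 CPM in radiation LPS and 615.3 to 670.1 CPM in sham PBS libraries. The list holds Gzmbl2, Gzma and the perforin gene Prf1, which led the increases. Cd3e, a CD3 subunit gene of the T cell receptor complex, had 2.29 to 6.59 CPM in radiation LPS and 0 to 0.249 CPM in sham PBS libraries. The NK receptor gene Klrb1a had 7.21 to 18.4 CPM in radiation LPS and 0.518 to 0.995 CPM in sham PBS libraries. Irradiation alone had raised 17 of 22 monocyte and 13 of 14 border-associated macrophage markers, with 0 lower. It had also raised 22 of 27 T and NK markers and lowered 1. Monocyte sums with radiation PBS were 14130 to 21040 CPM and overlapped those of radiation LPS. Radiation PBS sums were 1718 to 2129 CPM for border-associated macrophage and 658.1 to 787.5 CPM for T and NK markers, below radiation LPS. The part of such cells in the chemokine, cytokine and granzyme increases was not tested.

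Among 15 neutrophil markers 12 were higher and 1 was lower. Their summed level was 2735, 715.2, 583.1 and 514.9 CPM in the radiation LPS libraries and 335.6 to 420.8 CPM in the sham PBS libraries. With a single hit it was 281 to 351.5 CPM in radiation PBS and 288.4 to 332.5 CPM in sham LPS libraries. The median departure of these markers was 2.45, with 0 called, and it was 1.02 without radiation LPS library 1. S100a9, a neutrophil calprotectin gene, had 1160, 182, 82.3 and 36.1 CPM with radiation LPS and 12.1, 23.8, 9.61 and 4.74 CPM with sham PBS, whereas the granule enzyme genes Mpo and Prtn3 were at 0 in all 16 libraries. The chemokine receptor gene Cxcr2 had 111, 64.6, 110 and 86.8 CPM with radiation LPS and 0.0471 to 1.06 CPM with sham PBS. Without both irradiated libraries numbered 1, counts were 12 higher and 1 lower for neutrophil, 19 and 0 for monocyte, and 23 and 1 for T and NK markers. Leaving out radiation LPS library 1 alone gave 11 higher and 1 lower neutrophil markers, and their median fell from 4.85 to 3.21. Of 9 B cell markers 4 were higher and 1 lower, with sums of 37.13 to 73.07 CPM with radiation LPS and 63.55 to 89.07 CPM with sham PBS. Endothelial markers rose in 3 and fell in 5 of 11, and astrocyte markers rose in 3 and fell in 1 of 13. Oligodendrocyte markers rose in 3 and fell in 1 of 12, and neuron markers rose in 2 and fell in 0 of 14. Red cell markers rose in 0 and fell in 1 of 6. Over all genes 24.6% were higher and 22.1% lower, so the astrocyte and oligodendrocyte increases were near the share of all genes. Without radiation LPS library 1, the counts were 1 higher and 1 lower for astrocyte (also without sham PBS library 2), 0 and 1 for oligodendrocyte, and 0 and 0 for neuron markers. The summed astrocyte level was 531.1, 210.5, 326.2 and 244 CPM in the radiation LPS libraries and 788.2, 589.9, 1010 and 960.4 CPM in the sham PBS libraries, so that these groups did not overlap.

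**Figure D5:**
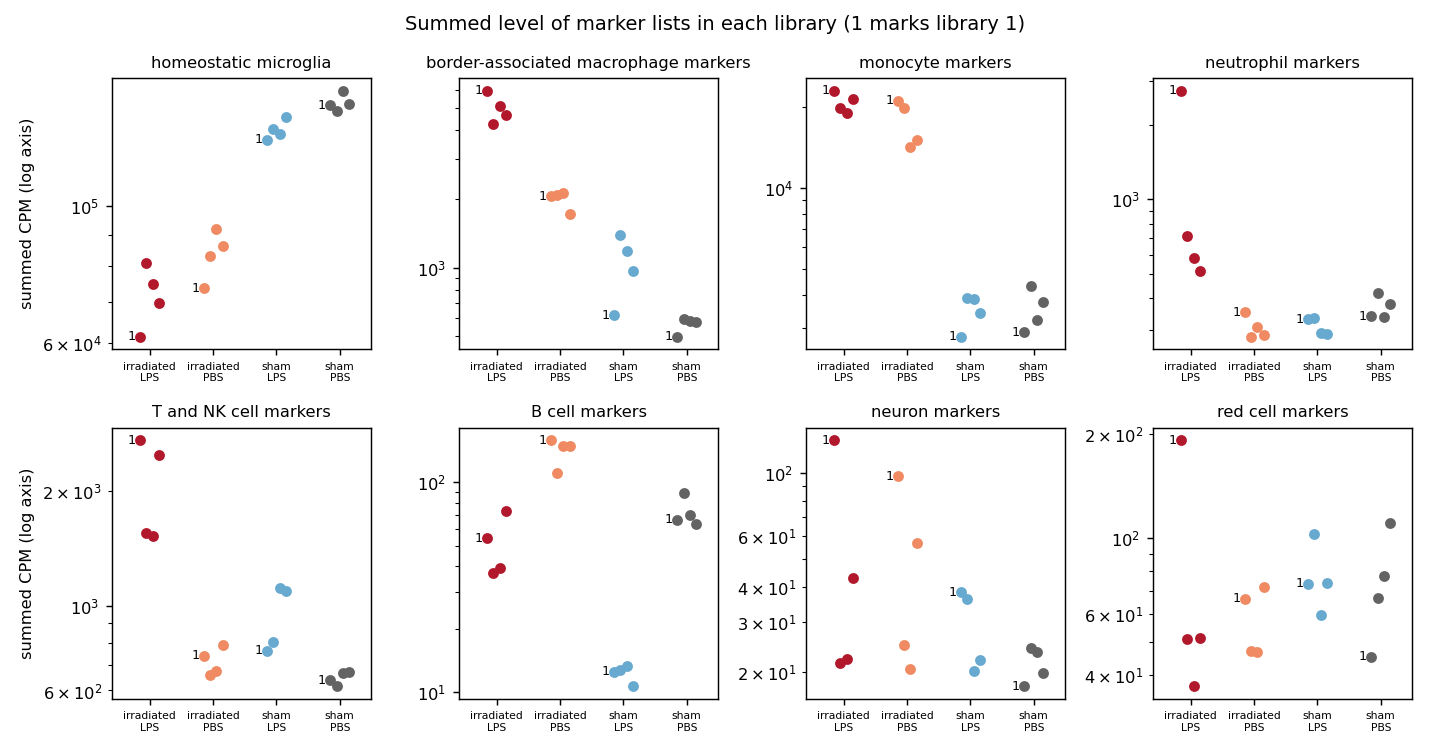
Summed CPM, on a log axis, of 8 marker lists in each library, by group in the order radiation LPS, radiation PBS, sham LPS and sham PBS, with library 1 of each group marked. Radiation LPS library 1 is highest for neutrophil (2735), neuron (130.4) and red cell (191.5) genes. Monocyte sums are 18930 to 22970 with radiation LPS, 14130 to 21040 with radiation PBS and 2901 to 4312 with sham PBS.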

How the data were processed

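Bulk RNA-seq of sorted rat microglia gave 16 libraries in 4 groups of 4, read with low-input library preparation on a NovaSeq6000, per the labels. The authors deposited raw read counts per gene for each library and a matrix of the same counts by gene symbol; 0 of 349472 matrix cells differed from the single files. The submitters' processing notes name HTSeq 2.0.2, fastp 0.23.2, FastQC 0.11.9 and the mRatBN7.2 build. The aligner, strand setting and annotation release were not given in the sources used here. Of 30560 gene IDs 6518 had no symbol (1.85% to 2.28% of the counts) and were left out, and 246 symbols stood for several IDs.

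Counts were fitted in R 4.3.3 with edgeR 4.0.16: a minimum count of 10 in its expression filter, trimmed-mean scaling, robust quasi-likelihood and 1 coefficient per group over all 16 libraries, which left 12308 of 21842 symbols and 12 residual degrees of freedom. The double hit was radiation LPS minus sham PBS, and the departure was the double hit minus both single effects, on the log2 scale. P-values were adjusted over all genes tested with the Benjamini-Hochberg method, with a threshold of 0.05. SEs come from the quasi-likelihood F statistic, and intervals are at 95%. The biological coefficient of variation was 0.28, and the fit was tested on simulated data.

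Genes were named by rule: among those whose log2 CPM averaged 3 or more, the largest called double-hit changes, departures, changes within 1.5-fold of the sum, opposite, shared and double-only effects, plus a fixed panel and the 2 members of each pathway list with the smallest p. The largest double-hit changes were taken only from genes whose radiation LPS and sham PBS libraries did not overlap. This gave 111 genes. The members and the 32 gene lists were chosen with earlier results of these data known. Genes named from a list outside this rule were chosen after their values were seen. Alternatives were DESeq2 1.42.0, voom in limma 3.58.1, other scalings and filters, thinning, gene IDs in place of symbols, a replicate block, a fold threshold and leaving out libraries. Promoter sequences were matched by symbol for 9592 of the 12308 genes tested.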

Additional observations from a re-analysis of the deposited data

Results flagged for a closer look

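In 34 of 444 groups of 4 libraries of the named genes, 1 library stood apart from the other 3, where chance at 1 in 20 gives about 22.2. The number after each gene is the gap to the nearest library as a share of the group's range. In radiation LPS these were Serpinb1a 0.864 and Med12l 0.957, both high in library 1, Col15a1 0.966 and Cd68 0.860, both high in library 2, and in library 4 Abca9 0.841, high, and Apoe 0.858, low. In radiation PBS library 1, Samsn1 0.956 and Ptpn1 0.834 were high and Cd14 0.859, P2ry13 0.924, Msmo1 0.858 and Dhcr7 0.941 low. In the other radiation PBS libraries, P2ry12 0.895 was high in library 2, Fbxl5 0.926 and Ccl2 0.895 were low in library 3, and Lpar5 0.838 and Cd63 0.853 were low in library 4. In sham LPS, AABR07030773.1 0.832 and Cd59 0.920 were low in library 1, Sall1 0.844 was high in library 2, Kcna2 0.973 was low and Gbp5 0.924 high in library 3, and Igsf10 0.903 was high in library 4. In sham PBS library 1, Nos2 1.00, Cdkn1a 0.902 and Tap1 0.838 were high and Rcn2 0.853 and Cd68 0.990 low. In sham PBS library 2, Samsn1 0.885, Ccr2 0.837 and Fkbp5 0.884 were low, in library 3 Gm6377 0.835 was low and Msmo1 0.845 high, and in library 4 Abca9 0.874 was high. The Nos2 value rests on 1 count.

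The effect of LPS differed between irradiated and sham rats for 25 named genes in the edgeR test of that difference, which equals the departure (log2). It was more positive in irradiated rats for Cd274 (2.13), Gbp5 (2.13), Il1rap (1.85), Tnip1 (1.81), Fbxl5 (1.69), Serpinb1a (1.66), Pde4b (1.63), Sod2 (1.63), Ccrl2 (1.42), Slc11a2 (1.27), Adprm (0.99) and Fcgr3a (0.86). For Rgs18 (1.94), which LPS lowered in sham and in irradiated rats, it was less negative in irradiated rats. It was smaller or more negative for Egr1 (-3.09), Pithd1 (-2.42), Rcn2 (-2.07), Sdc1 (-2.05), Rnf187 (-2.02), Mtarc1 (-2), Odc1 (-1.96), Snx20 (-1.90), Cdkn1a (-1.66), Bcl3 (-1.60), Btg2 (-1.39) and Eva1a (-0.85).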

How the results depend on the processing

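Of 25 named departures, 19 were called under every setting except the 1.5-fold threshold. The number of departures was less stable than that of double-hit changes. DESeq2 called 176 above and 240 below the sum, library totals alone 175 below, and a replicate block 133 below. Leaving out both irradiated libraries numbered 1 gave 48 and 53. Leaving out each library in turn gave 54 to 103 above and 51 to 107 below. A test against a 1.5-fold change gave 13 and 13 departures, 1507 higher and 1086 lower genes in the double hit, 553 and 313 for LPS alone and 634 and 149 for irradiation alone. With library totals alone, irradiation alone gave 2254 higher and 685 lower genes, and the median departures of the LPS recognition, complement, lysosomal and primed lists changed sign. In CPM in place of log2, the departure changed sign for Bcl3 (21.8), Eva1a (46.4), Rgs18 (-26.6), Sdc1 (7.28) and Cdkn1a (12.9), since added differences and multiplied folds are different sums. Same-numbered libraries of different groups correlated between -0.0948 and 0.441 in their deviations (median 0.0882), against a median of -0.0344 for different numbers. The labels state no pairing, so the results carry no block. However, 11 of 24 same-numbered pairs exceeded 0.1 and 11 of 16 libraries matched their own number best, a hint of pairing from the data and not the design. With the block, Rgs18 lost its departure (adjusted p = 0.056) and Fam214a gained one (0.0409), while Rnf187 lost its double-hit call (0.0509) and Mtarc1 gained one (0.00896). Under voom, Bcl3 (adjusted p = 0.216), Cdkn1a (0.207), Pithd1 (0.11) and Rgs18 (0.14) lost theirs. Leaving out 1 library ended the departure of Eva1a in 12 of 16 cases (adjusted p from 0.06 to 0.0856). With 4 libraries a group the median half-width of a departure interval was 0.57, with no adjustment for the number of genes tested. Calls used the adjusted p, which is stricter, so this half-width is not the smallest departure that could be called. Il1b (0.85) and Cxcl10 (0.96) departed by more and were not called, whereas Wars1 (0.47), with a smaller SE, was called.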
